A study of Mus musculus with 13 samples.

Results

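Cadherins and protocadherins, the calcium-dependent adhesion molecules that join cells to their neighbours, were followed here in single nuclei of the mouse hippocampus. The members were the genes whose symbol is Cdh followed by a number or begins with Pcdh, with 1 gene left out, and they numbered 91 of the 32285 genes in the deposited matrices. They comprised 34 single genes and 57 clustered protocadherins, of which 14 belong to the Pcdha cluster, 22 to the Pcdhb cluster and 21 to the Pcdhg cluster. Genes of the Pcdha and Pcdhg clusters share their last exons and the Pcdhb genes are close copies of each other, so each cluster was read as 1 sum, which left 37 units. The nuclei came from whole frozen hippocampus of 13 female mice, all of 1 hybrid strain that the labels write C3HB6F1 and the series text C3B6F1. Young mice fed ad libitum were 5 months old (n = 3) and old mice fed ad libitum were 24 months old (n = 3, numbered 1, 2 and 4). Acutely restricted mice were 24 months old and had been on dietary restriction since 20 months (n = 3), and long-term restricted mice were 24 months old and had been restricted since 5 months (n = 4). The labels number 1 sample per library and were read as 1 mouse each, so p-values measure the spread between these samples.

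A cadherin binds, through repeated extracellular domains that hold calcium, to the same or a related cadherin on the facing cell. Classical cadherins of types I and II carry a cytoplasmic tail that binds catenins and through them actin, whereas atypical cadherins such as Cdh13 (anchored by a lipid) and Cdh23 (a very long molecule that pairs with Pcdh15 at the tip links of hair cells) lack that tail. Protocadherins have more repeats and other tails: the delta-1 and delta-2 groups each have conserved tail motifs, and the clustered genes are chosen promoter by promoter, so that single neurons differ in the set they carry. In the hippocampus, type II cadherins differ between layers and cell types, and Cdh9 is known for its role at the synapses between granule neurons and CA3 pyramidal neurons.

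Libraries held 38546292 to 80538088 UMIs, and 98041 nuclei were kept after removal of 7386 predicted doublets. Lists of marker genes named the clusters and put 69260 nuclei into 14 classes, each written as "-like", and left 28781 unnamed. All 3 excitatory classes that define the hippocampus were found, with 31282 nuclei called dentate granule-like, 5627 called CA1-like and 1633 called CA3-like. The median UMIs per nucleus ran from 3801 to 7123 in the young libraries and from 6884 to 11375 in the old ad libitum libraries, so depth moved with age. It was 5440 to 7792 in acutely and 6204.5 to 8814 in long-term restricted libraries. The libraries numbered 1 stood apart: in granule-like nuclei their deviations from the group means correlated at 0.37 to 0.77 across genes, against -0.10 to 0.41 for those numbered 2. Member calls were also made without these 4 libraries. No pair of libraries shared more than 40 barcodes, which was 0.473% of the smaller library.

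Of the 37 units, 30 passed the filter on low counts in at least 1 of the 9 classes with enough nuclei for a test. The other 7 were Cdh1 (222 UMIs in all named nuclei), Cdh3 (39), Cdh5 (345), Cdh16 (14), Cdh17 (21), Cdh26 (46) and Pcdh12 (18). Single members lie in long genes, with a median span of 114.7 kb against 12.3 kb for all genes.

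The heat map of mean levels shows the class in which each member was highest. That class was the same for 27 of the 30 units with CPM of the library total and for 25 in the 3 old ad libitum mice alone. Levels in this section are log2 CPM, the summed UMIs of a class in a mouse per unit of library size, scaled together over all classes, and are a description without a test, since the same nuclei defined the classes. A unit without UMIs has a level of -0.09 on this scale.

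**Figure D1:**
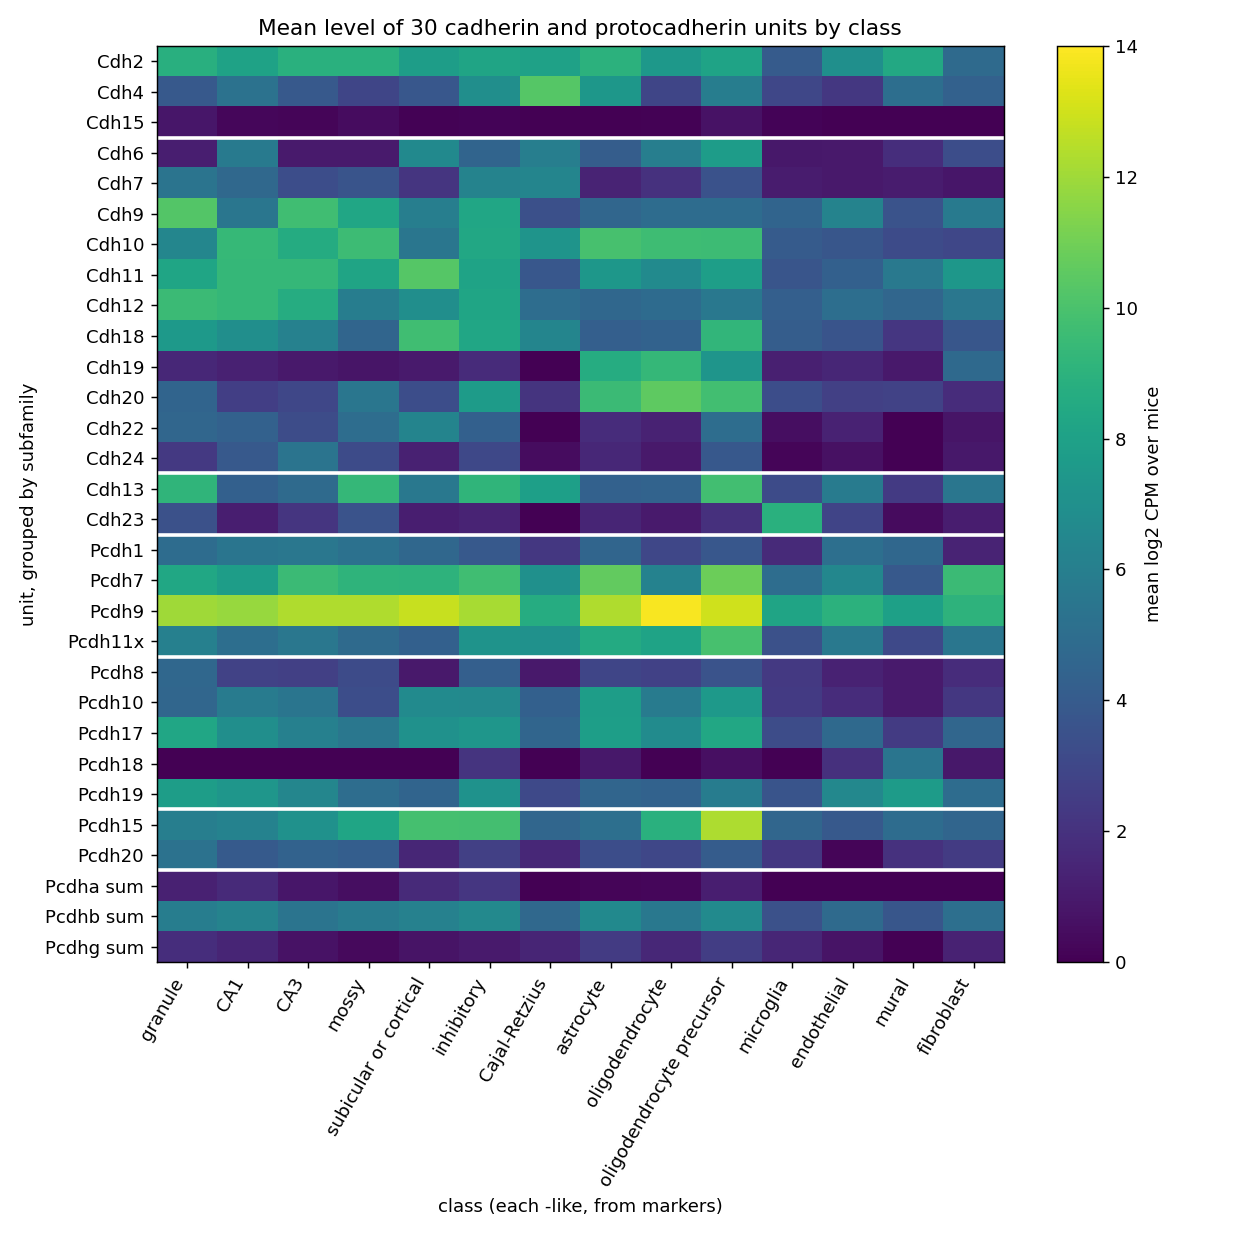
Mean log2 CPM over mice (colour) of the 30 units that passed the filter, in rows grouped by subfamily, in 14 classes, in columns. Pcdh9 is at its highest in oligodendrocyte-like nuclei, Pcdh15 in oligodendrocyte precursor-like nuclei and Cdh23 in microglia-like nuclei.

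Among type I cadherins, Cdh2 (N-cadherin, of neural junctions and synapses) was spread over most classes. Its level was highest in astrocyte-like nuclei, with 8.64, 8.95 and 9.39 as the lowest, median and highest mouse, and it exceeded the CA3-like level in only 9 of 12 mice. Cdh4 (R-cadherin) was highest in Cajal-Retzius-like nuclei, at 9.95, 10.22 and 10.63 over 7 mice, above the 6.82, 7.46 and 7.91 of astrocyte-like nuclei. Cdh1 (E-cadherin, of epithelia) reached 4.76, 5.88 and 6.93 in fibroblast-like nuclei over 9 mice and had a mean of 0.50 or less in every other class. Cdh15 (M-cadherin, of muscle) had 203 UMIs and a mean of 0.86 in its highest class, the granule-like nuclei.

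Several type II cadherins were highest in a neuron class. Cdh9 had 9.90, 10.25 and 10.51 in granule-like nuclei and 8.65, 9.72 and 10.10 in CA3-like nuclei, the classes on either side of the mossy fibre synapse, while its mean in CA1-like nuclei was 5.48. Cdh12 was at 9.10, 9.61 and 9.92 in granule-like nuclei with a CA1-like mean of 9.34. Cdh11 was highest in subicular or cortical-like nuclei (9.97, 10.28 and 10.59), which lay above CA1-like nuclei in all 13 mice. Cdh18 had 9.22, 9.73 and 10.04 in the same class, and Cdh22 had 5.88, 6.34 and 6.77 there. Cdh24 was highest in CA3-like nuclei with a mean of 5.40 ± 0.49 (SD, n = 12), and Cdh7 in Cajal-Retzius-like nuclei at 5.31, 6.62 and 7.22, within the spread of the inhibitory-like mean of 6.25 ± 0.69 (SD, n = 13).

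Other type II cadherins were highest in glial or endothelial classes. Cdh20 had 10.03, 10.51 and 10.87 in oligodendrocyte-like nuclei, above oligodendrocyte precursor-like nuclei (9.10, 9.75 and 10.06) in all 13 mice. Cdh19 had a mean of 9.35 ± 0.27 (SD, n = 13) in oligodendrocyte-like nuclei and was at 7.71, 8.67 and 9.74 in astrocyte-like nuclei, and its mean was 1.71 or less in every neuron class. Cdh10 was highest in astrocyte-like nuclei (9.94 ± 0.17, SD, n = 13), with a mean of 9.68 in oligodendrocyte-like and 9.59 in precursor-like and mossy-like nuclei. Cdh6 had 7.08, 7.92 and 8.13 in precursor-like nuclei. Cdh5 (VE-cadherin, of the endothelial junction) had 6.36, 7.05 and 7.25 in endothelial-like nuclei over 8 mice and 4.76, 6.42 and 6.78 in fibroblast-like nuclei over 9.

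Of the atypical cadherins, Cdh13 split the excitatory neurons. It had a mean of 9.14 in granule-like and 9.31 in mossy-like nuclei but 4.28 in CA1-like and 4.84 in CA3-like nuclei, and was highest in precursor-like nuclei at 9.18, 9.84 and 10.09. Cdh23 was highest in microglia-like nuclei at 7.81, 8.98 and 9.56, with a mean of 3.59 in mossy-like nuclei, the next class. The span of Cdh23 (chromosome 10, 60302748 to 60696490, minus strand) contains the gene Vsir on the opposite strand, an immune checkpoint receptor of myeloid cells, whose own microglia-like level was 7.88 ± 0.29 (SD, n = 13) against 4.26 in the next class. The use of strand in counting is not given in the sources used here, so whether reads of Vsir were counted for Cdh23, or the reverse, cannot be checked. In granule-like nuclei Vsir had a level of 0.69 and Cdh23 3.45.

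Of the delta-1 protocadherins, Pcdh9, Pcdh7 and Pcdh11x were highest in the oligodendrocyte lineage and Pcdh1 in pyramidal neurons. Pcdh9 had 13.27, 13.88 and 14.18 in oligodendrocyte-like nuclei and means of 11.83 to 13.01 in precursor-like, astrocyte-like and all neuron classes other than Cajal-Retzius-like nuclei (8.66). Pcdh7 was at 10.37, 10.83 and 11.09 in precursor-like nuclei, above astrocyte-like nuclei (mean 10.64) in 11 of 13 mice. Pcdh11x was at 9.34, 9.97 and 10.18 in precursor-like nuclei and above its astrocyte-like level in all 13. Pcdh1 was highest in CA3-like nuclei at 5.10, 5.50 and 6.28, above the CA1-like level in 8 of 12 mice.

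Delta-2 protocadherins were highest in differing classes. Pcdh17 had 8.17, 8.41 and 8.70 in precursor-like nuclei and a mean of 8.29 in granule-like nuclei. Pcdh10 had 7.46, 7.76 and 8.12 in astrocyte-like nuclei, Pcdh19 (mutated in a form of female-limited epilepsy) had 7.22, 7.85 and 8.20 in granule-like nuclei, and Pcdh8 had 3.86, 4.55 and 5.32 there. Pcdh18 was at 3.98, 5.75 and 6.57 in mural-like nuclei over 7 mice, with 2.13 as its next highest mean. Outside these groups, Pcdh15 had 11.77, 12.36 and 12.53 in precursor-like nuclei, above subicular or cortical-like nuclei (8.82, 9.95 and 10.38) in all 13 mice, and Pcdh20 had 4.52, 5.03 and 6.31 in granule-like nuclei.

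Of the clustered genes, the Pcdhb sum held 23418 UMIs against 604 for Pcdha and 825 for Pcdhg. How reads in the last exons shared by Pcdha or by Pcdhg genes were counted is not given in the sources used here. These totals therefore do not compare the levels of the clusters. The Pcdhb sum had 6.20, 6.76 and 7.36 in precursor-like and 5.77, 6.57 and 7.44 in astrocyte-like nuclei, and the order of these classes was the same in only 7 of 13 mice. The row for Pcdha1 held 77.9% of the Pcdha sum and the row for Pcdhga1 82.0% of the Pcdhg sum, the first exon of each cluster, so these rows do not give the use of single promoters. In the Pcdhb sum no gene dominated: Pcdhb14, the largest, held 12.3%.

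Ageing gave nearly all calls of members, and all of them were toward higher levels in old mice. Counts were summed per mouse and class, fitted with edgeR's quasi-likelihood test and adjusted by the Benjamini-Hochberg method over all genes of a class, and a member was called at an adjusted p under 0.05. The 30 units in 9 classes gave 199 tested pairs, of which 14 (7.04%) rose with age and none was called lower, against 1.5% of all 100167 pairs of a gene and a class called in either direction, 0.841% higher and 0.664% lower. The median log2 fold change, old minus young, was 0.25 over the member pairs, of which 141 were above 0, and -0.03 over all pairs, of which 47580 were above 0. Old and young mice did not overlap in 65 of the 199 member pairs, with all 14 called pairs among them. The share over all genes was not counted, so an absence of overlap is given below only as a description.

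These calls depended on the fit and on single mice. With the median UMIs per nucleus as a covariate none of the 14 was called, and 34 pairs were called over all genes. Their fold changes stayed above 0 in that fit, from 0.21 to 2.53, and moved by over 1.5 times for Cdh2 in granule-like nuclei (0.21), Cdh20 in oligodendrocyte-like nuclei (0.22) and Cdh6 in precursor-like nuclei (0.37). With a trend of fold change on gene length removed, the median over member pairs was 0.00 and 12 (6.03%) were called, 9 higher and 3 lower, among them 4 of the 14, against 0.584% of all pairs. Leaving out 1 mouse at a time gave 1 call without young mouse 2, 2 without old mouse 2, 3 without old mouse 4, 8 without long-term mouse 4 and 10 to 19 without any other. Over all genes the calls in these fits were 198, 308, 479, 1133 and 1069 to 4008, beside 1507 with every mouse kept.

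The libraries numbered 1 had the opposite effect on the count. With a term for them 32 member pairs (16.1%) were called, all higher and with all 14 among them, against 7.30% of all pairs, of which 2948 were higher and 4368 lower. Without these libraries 27 were called by edgeR, 10 of them among the 14, where 7149 of all pairs were. The others called without them were Cdh12 (1.21 to 1.85) and Cdh9 (1.32 to 1.70), each in astrocyte-like, oligodendrocyte-like and precursor-like nuclei, Pcdh11x in astrocyte-like nuclei (0.67) and, in granule-like nuclei, Cdh20 (1.37) and Pcdh9 (0.61). In CA1-like nuclei they were Cdh22 (1.55), Pcdh19 (0.72) and the Pcdhb sum (0.82), and in inhibitory-like nuclei Pcdh17 (0.49) and the Pcdhb sum (0.72). The remaining ones were in microglia-like nuclei and rest on few UMIs: Cdh9 had 0 to 4 UMIs per young mouse, and Cdh11 and Cdh12 did not pass the filter there over all mice, so their fold changes are not given.

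Dentate granule-like nuclei held 7 of the calls, among 29 units tested, where 2.6% of all genes were called. The members that rose were of type I (Cdh2), type II (Cdh18 and Cdh22), atypical (Cdh13 and Cdh23), delta-1 (Pcdh7) and clustered (the Pcdhb sum). The RefSeq promoters of 4 of them (GRCm38.p6, 250 bases before to 50 after the start, 5′ to 3′) are shown because these genes were called in the same class. They are not a set that rose in every part of it. The fold change of Cdh23 was -1.01 (adjusted p = 0.254, edgeR) in the granule cluster led by Dsp and Lct, as given below. Capitals mark matches, on either strand, to a CCAAT box (CCAAT, reverse ATTGG), a GC box (GGGCGG, reverse CCGCCC) or a TATA box (TATAAA, reverse TTTATA), which 37.4%, 35.7% and 13.6% of 32851 promoters of this length hold.
Cdh18: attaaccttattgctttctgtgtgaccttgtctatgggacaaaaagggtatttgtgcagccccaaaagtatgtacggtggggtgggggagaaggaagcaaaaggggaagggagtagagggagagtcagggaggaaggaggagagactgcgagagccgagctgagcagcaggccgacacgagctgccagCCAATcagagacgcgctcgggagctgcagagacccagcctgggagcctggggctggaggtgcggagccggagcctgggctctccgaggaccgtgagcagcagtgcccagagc
Cdh22: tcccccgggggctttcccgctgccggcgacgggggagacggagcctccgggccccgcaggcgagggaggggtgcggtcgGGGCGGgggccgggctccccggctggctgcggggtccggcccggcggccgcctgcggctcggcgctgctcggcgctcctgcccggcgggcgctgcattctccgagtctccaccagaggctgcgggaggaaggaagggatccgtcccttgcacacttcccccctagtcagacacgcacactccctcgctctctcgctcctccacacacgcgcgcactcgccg
Cdh23: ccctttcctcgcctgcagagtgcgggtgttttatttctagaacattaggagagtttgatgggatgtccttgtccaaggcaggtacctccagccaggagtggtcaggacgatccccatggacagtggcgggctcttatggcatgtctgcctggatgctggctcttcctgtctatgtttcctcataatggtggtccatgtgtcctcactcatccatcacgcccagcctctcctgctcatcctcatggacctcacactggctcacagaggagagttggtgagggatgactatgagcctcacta
Pcdh7: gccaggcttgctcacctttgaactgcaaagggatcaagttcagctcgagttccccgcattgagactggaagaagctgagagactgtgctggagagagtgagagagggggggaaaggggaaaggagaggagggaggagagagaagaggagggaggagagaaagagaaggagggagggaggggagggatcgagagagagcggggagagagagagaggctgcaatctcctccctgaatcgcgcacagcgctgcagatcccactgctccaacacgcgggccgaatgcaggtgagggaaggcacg
No motif was shared by these windows. Cdh18 (chr15:23036213-23036512, plus strand, within the annotated gene) has 1 CCAAT box, Cdh22 (chr2:165234688-165234987, minus strand) has 1 GC box, and Cdh23 (chr10:60696441-60696740, minus strand) and Pcdh7 (chr5:57717831-57718130, plus strand) have none of the 3. The Cdh22 window has 38 CpG, more than 95.0% of all promoters, and the others have 12, 5 and 11, beside a median of 7 over all promoters. Across the 24 RefSeq promoters of 21 single members, 16 hold a CCAAT box, 8 a GC box and 2 a TATA box.

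Values in the sections on age and diet are log2 CPM from the fit of the class itself, listed in the order of the mouse numbers. Cdh13 (chromosome 8, 118283733 to 119324921, plus strand), a lipid-anchored cadherin, was at 8.13, 8.12 and 8.24 in granule-like nuclei of young mice and at 8.86, 9.09 and 8.89 in old mice. The groups did not overlap, and the rise was 0.79 ± 0.14 on the log2 scale (mean ± SE, adjusted p = 0.0162 by edgeR). Cdh18, a type II cadherin of neurons, was at 6.31, 6.13 and 6.51 in young and 7.04, 7.19 and 7.17 in old mice (0.81 ± 0.16, adjusted p = 0.028, edgeR). Cdh22 (chromosome 2, 165111507 to 165234853, minus strand), also of type II, was at 3.77, 3.45 and 3.44 in young and 4.51, 4.27 and 4.35 in old mice (0.82 ± 0.15, adjusted p = 0.0204, edgeR). Every old mouse lay above every young mouse for each of these genes.

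Pcdh7 (chromosome 5, 57717967 to 58133230, plus strand), a delta-1 protocadherin, was at 7.28, 7.28 and 7.48 in young and 7.81, 8.06 and 7.97 in old mice, a rise of 0.60 ± 0.12 (adjusted p = 0.03, edgeR). Cdh2 was at 8.18, 8.05 and 8.07 in young and 8.73, 8.39 and 8.57 in old mice, a rise of 0.47 ± 0.11 (adjusted p = 0.0428), and was not called without the libraries numbered 1 (0.42, adjusted p = 0.0609, edgeR). The Pcdhb sum was at 5.54, 5.44 and 5.20 in young and 6.03, 5.88 and 5.97 in old mice, a rise of 0.56 ± 0.12 (adjusted p = 0.0329, edgeR). Again no group overlapped. Without the libraries numbered 1 the rises were 0.81 for Cdh13, 0.86 for Cdh18, 0.88 for Cdh22, 1.45 for Cdh23, 0.64 for Pcdh7 and 0.61 for the Pcdhb sum, each called by edgeR. With the length trend removed only the Pcdhb sum was called among these 7, the fold changes of Cdh2, Pcdh7, Cdh13, Cdh18 and Cdh22 were 0.19, 0.26, 0.36, 0.40 and 0.61, and Cdh23 had an adjusted p of 0.0939 by edgeR. All 7 calls were lost without old mouse 2 (adjusted p 0.0747 to 0.148), old mouse 4 (0.06 to 0.151) or young mouse 2 (0.0584 to 0.142), with fold changes in these fits of 0.44 to 1.34. Cdh22 was also lost without old mouse 1 (0.76, adjusted p = 0.0598), Pcdh7 without long-term mouse 4 (0.60, 0.0507), the Pcdhb sum without any of 5 further mice (0.0507 to 0.0723) and Cdh2 without any of 7 further mice (0.0505 to 0.0964).

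Cdh23 was at 1.82, 2.00 and 2.11 in young and 2.76, 3.64 and 3.28 in old mice, a rise of 1.33 ± 0.26 (adjusted p = 0.0293, edgeR), from 64 to 86 UMIs per young mouse and 52 to 266 per old mouse. Granule-like nuclei were made up of 2 clusters, and the level of Cdh23 was 4.56 in the one led by Gm6999 and Trpc6 and 1.25 in the one led by Dsp and Lct. The first cluster made up 25.1, 35.4 and 37.9% of granule-like nuclei in the young and 35.2, 53.3 and 51.4% in old mice. Within it Cdh23 rose by 1.19 and was called, and within the other the fold change was -1.01 (adjusted p = 0.254, edgeR). When members were among the genes used for clustering, the fold change over granule-like nuclei was -0.22 (adjusted p = 0.722). Vsir, which overlaps it, had a fold change of 0.80 (adjusted p = 0.379). By contrast Cdh13 rose in each cluster alone (0.70 and 0.65), as did Cdh18 (0.59 and 0.62), all at an adjusted p under 0.05. The other 4 calls each held in 1 of the clusters: Cdh22 was 0.94 and called in the cluster led by Dsp and 0.63 (adjusted p = 0.0785, edgeR) in the other, and the Pcdhb sum was 0.48 and called against 0.51 (0.0587). Cdh2 was 0.41 (0.0549) in the cluster led by Dsp and 0.45 and called in the other, and Pcdh7 was 0.27 (0.154) against 0.42 and called. Some units not called over the whole class were called in a cluster alone. Pcdh9 was called in each (0.56 and 0.53), and Cdh11 (0.35) and Cdh20 (0.93) in the cluster led by Gm6999. The share of all genes called in each cluster is not given here.

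Median UMIs per granule-like nucleus were 3795.5 to 6378 in young and 7063 to 12800 in old mice, and the summed markers of the granule list were 3536 to 3995 CPM in young and 4466 to 4808 in old mice. Their part in these results was not tested.

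**Figure D2:**
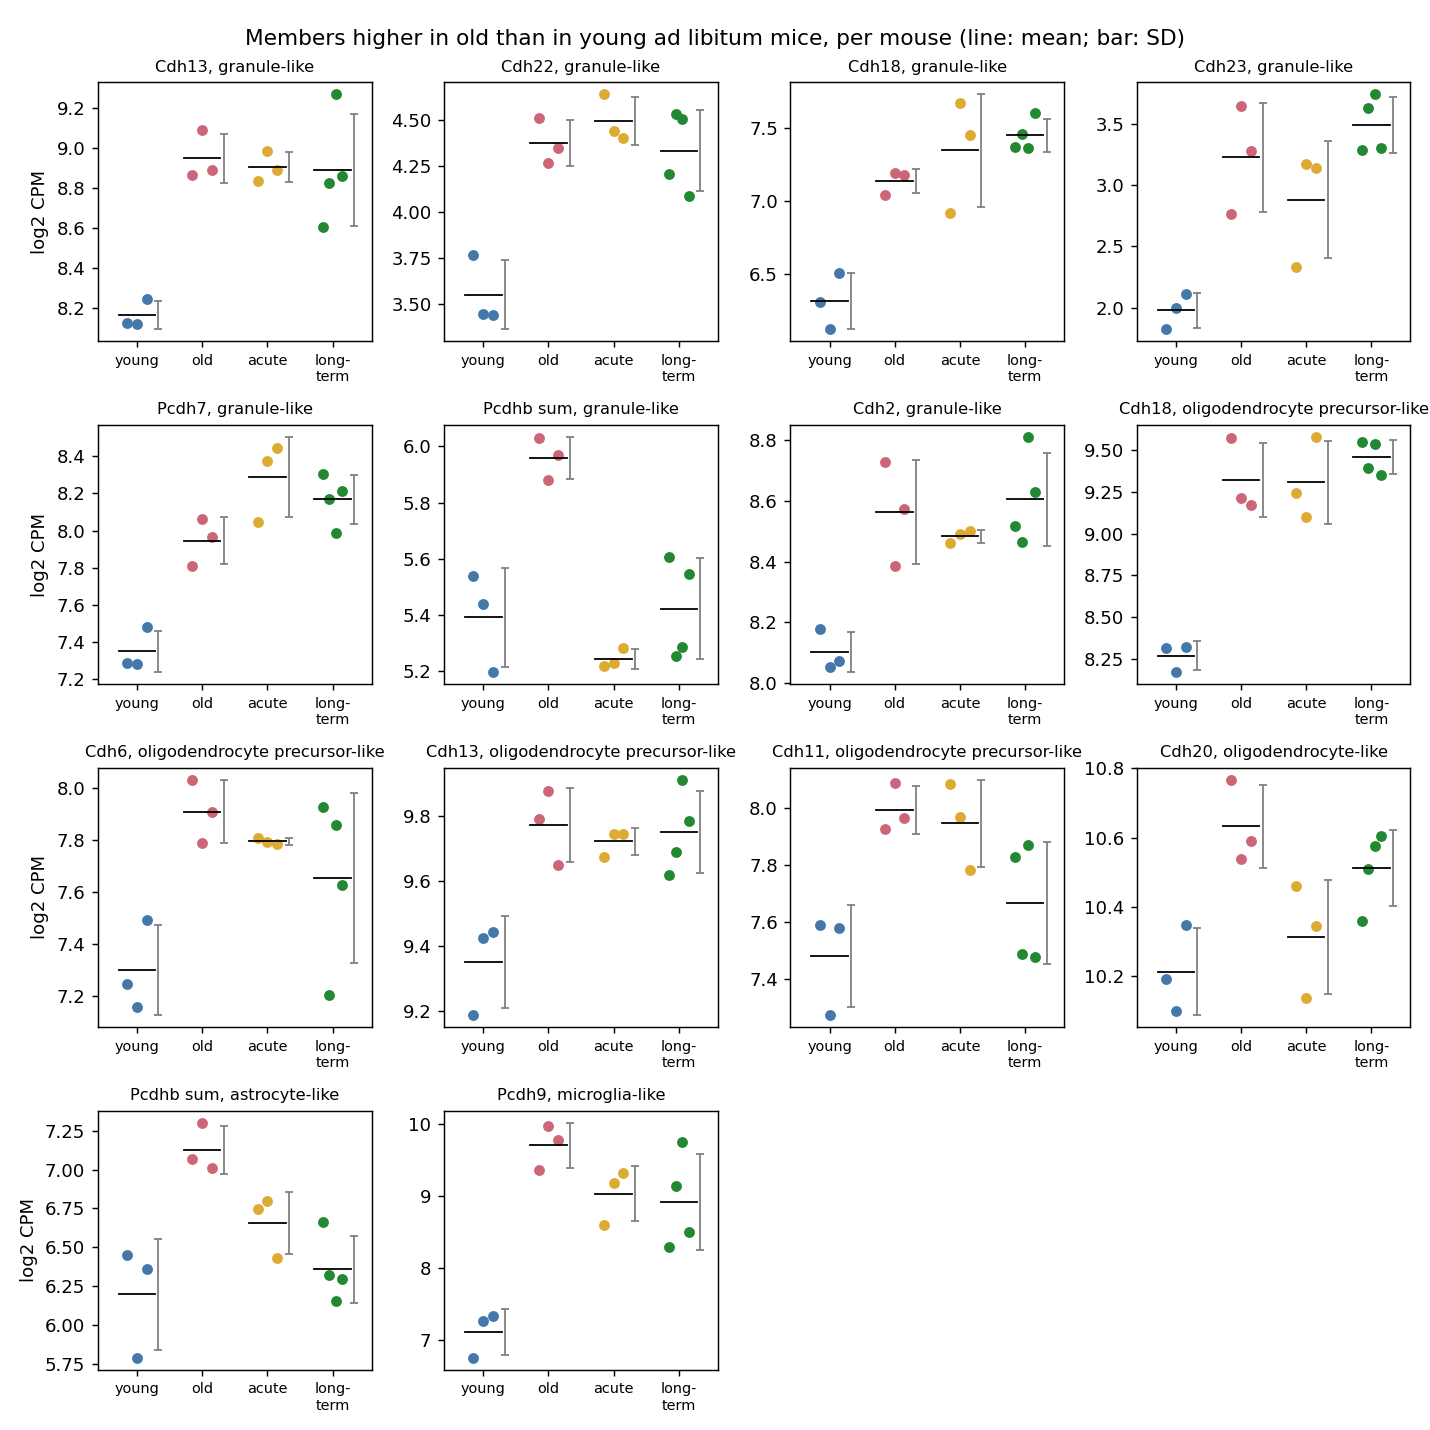
Log2 CPM per mouse (points) of the 14 pairs of a member and a class called between old and young mice fed ad libitum, with the mean (line) and SD (bar) of each of the 4 groups. In each panel the 3 old mice lie above the 3 young mice; the panels have their own vertical scales.

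Oligodendrocyte precursor-like nuclei held 4 calls among 24 units, where 2.78% of all genes were called, and the call of smallest p over all members was here. Cdh18 (chromosome 15, 22549022 to 23474418, plus strand) was at 8.32, 8.17 and 8.32 in the young and 9.58, 9.22 and 9.17 in old mice. Its rise of 1.06 ± 0.13 (adjusted p = 1.85e-05, edgeR) was called without any 1 mouse (0.93 to 1.16) and without the libraries numbered 1 (0.97). It was also called with the length trend removed (0.69, adjusted p = 0.00603) and not with median UMIs as a covariate (0.89, adjusted p = 0.0811). Every restricted mouse lay above every young mouse, at 9.24, 9.10 and 9.58 under acute and 9.55, 9.39, 9.54 and 9.35 under long-term restriction.

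The other 3 calls in precursor-like nuclei were smaller. Cdh6 (chromosome 15, 13028701 to 13173675, minus strand), a type II cadherin of developing tissue, was at 7.25, 7.16 and 7.49 in young and 8.03, 7.79 and 7.91 in old mice (0.60 ± 0.16, adjusted p = 0.0326, edgeR). Cdh13 was at 9.19, 9.42 and 9.44 in young and 9.79, 9.88 and 9.65 in old mice (0.42 ± 0.11, adjusted p = 0.0367, edgeR). Cdh11 (chromosome 8, 102632095 to 102785642, minus strand), the cadherin of mesenchymal cells, was at 7.59, 7.27 and 7.58 in young and 7.93, 8.09 and 7.97 in old mice (0.51 ± 0.14, adjusted p = 0.0469, edgeR). None of these groups overlapped. Without the libraries numbered 1, Cdh6 (0.53, adjusted p = 0.079) and Cdh13 (0.36, 0.156) were lost and Cdh11 (0.61) was kept by edgeR. Cdh11 was also lost with DESeq2 (0.51, adjusted p = 0.0752), with RLE size factors (0.0537) and with doublets kept (0.0573). With members among the clustering genes Cdh6 (0.48, adjusted p = 0.0932), Cdh13 (0.39, 0.0552) and Cdh11 (0.47, 0.0774) were lost, and with the length trend removed they were too, at 0.42, 0.04 and 0.32 by edgeR. Each was also lost without single mice: Cdh6 without 4 of 13 (adjusted p 0.0825 to 0.136), Cdh13 without 5 (0.0518 to 0.177) and Cdh11 without 7 (0.0512 to 0.216), old mouse 2 and young mouse 2 among them in each case. Median UMIs per precursor-like nucleus were 1919 to 2891.5 in young and 3437 to 6051 in old mice, and the summed oligodendrocyte markers in these nuclei were 626 to 868 CPM in young and 381 to 668 in old mice, whose part was not tested.

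In oligodendrocyte-like nuclei 1 of 22 units was called, where 6.45% of all genes were, so the count is not a result about the members. Cdh20 (chromosome 1, 104768529 to 104995481, plus strand), a type II cadherin, was at 10.19, 10.10 and 10.35 in young and 10.77, 10.54 and 10.59 in old mice, a rise of 0.41 ± 0.12 (adjusted p = 0.0443, edgeR). It was lost without the libraries numbered 1 (0.34, adjusted p = 0.144) and without any 1 of 10 mice (0.35 to 0.44, adjusted p 0.0504 to 0.271), and the fold change was -0.01 with the length trend removed. It was also lost with DESeq2 (0.38, adjusted p = 0.162), with RLE size factors (0.38, 0.0627), with a minimum of 50 nuclei (0.0731) and with members among the clustering genes (0.40, 0.0564, edgeR). With that trend removed, Cdh2 (-0.93, adjusted p = 0.0059), Pcdh11x (-0.74, 0.00802) and Pcdh15 (-0.71, 0.0158) were called lower in old oligodendrocyte-like nuclei by edgeR, where the fit without it gave -0.54, -0.12 and 0.09. Cdh2 was also called lower there with the replicate number as a block (-0.63, adjusted p = 0.0278), as was Pcdh8 in inhibitory-like nuclei (-0.94, 0.0489, edgeR).

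Of the clustered protocadherins, the Pcdha sum had a median fold change of -0.29 over 3 classes and the Pcdhg sum of 0.06 over 2. None was called, and both sums rest on few UMIs. The Pcdhb sum rose with age in granule-like and in astrocyte-like nuclei. In astrocyte-like nuclei, where 0.357% of all genes were called and 1 of 23 units, it was at 6.45, 5.79 and 6.36 in young and 7.07, 7.30 and 7.01 in old mice. The rise of 0.91 ± 0.18 (adjusted p = 0.0348, edgeR) became 1.11 without the libraries numbered 1. It was lost without 7 of 13 mice, in particular old mouse 2 (0.80, adjusted p = 0.233) and young mouse 2 (0.75, 0.191), and without old mouse 4, young mouse 3, acute mouse 2 or long-term mice 2 or 4 (0.0526 to 0.078). Over the 8 classes in which it was tested the fold change was 0.30 to 0.91 with a median of 0.57, above 0 in all 8, and the unadjusted p was under 0.05 in 7. Read gene by gene, 20 Pcdhb genes gave 63 pairs, of which 54 were higher in old mice, with a median of 0.59, and Pcdhb14 (0.87, adjusted p = 0.0472), Pcdhb17 (0.80, 0.0472) and Pcdhb19 (0.95, 0.0499) rose in granule-like nuclei by edgeR. Over all genes 1516 pairs were called with age in that fit. These pairs are parts of the same sum in the same libraries, so they restate its fold change and are not repeats of it.

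The Pcdhb genes are short, with a median span of 3.71 kb, and their fold changes were of the opposite sign to those of the next units in span. Pcdh8 (4.54 kb), a delta-2 protocadherin induced by activity, had a median fold change of -0.54 over 6 classes and Pcdh20 (6.65 kb) of -0.80 over 7, below 0 in every class, and neither was called. Among the longest members, Cdh12 (1140 kb) had a median of 0.63, Cdh13 (1041 kb) of 0.64, Cdh18 (925 kb) of 0.62 and Pcdh9 (877 kb) of 0.30, each above 0 in every class tested, whereas Pcdh15 (1550 kb) had 0.09. Across the 30 units Spearman's rho between span and median fold change was 0.43, a description over genes that share the same 13 libraries. With the length trend removed the Pcdhb sum was called higher in 7 of 8 classes, with fold changes of 0.82 to 1.34. That correction used the median span of single Pcdhb genes, and with the span of the whole cluster in its place the granule-like value was 0.26 (adjusted p = 0.328) and the astrocyte-like value 0.60 (0.308), neither called by edgeR.

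**Figure D3:**
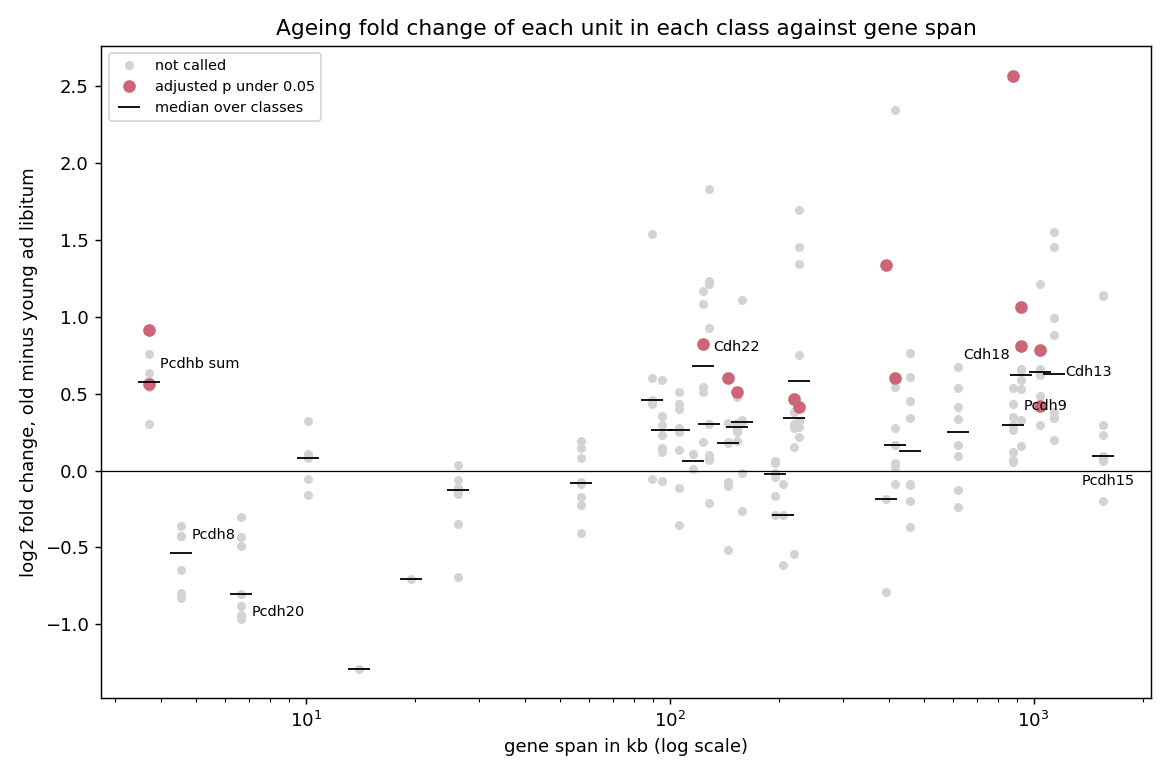
Log2 fold change, old minus young ad libitum mice, of each unit in each class (points; called pairs in red) against gene span in kb on a log scale, with the median over classes as a bar. The Pcdhb sum lies above 0 at a short span, where Pcdh8 and Pcdh20 lie below 0.

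In microglia-like nuclei only 5 units passed the filter, 1.36% of all genes were called, and Pcdh9 (chromosome 14, 93013410 to 93890679, minus strand) was the call among the 5. It was at 6.74, 7.26 and 7.33 in young mice, from 3, 14 and 37 UMIs, and at 9.35, 9.97 and 9.77 in old mice, from 76, 271 and 123 UMIs. The rise was 2.57 ± 0.42 (adjusted p = 0.0135, edgeR), and it was 2.66 without the libraries numbered 1, among them a young library with 23 microglia-like nuclei. With the length trend removed it was 1.61 and still called. It was lost without young mouse 2 (2.59, adjusted p = 0.0925) or young mouse 3 (2.70, 0.101). Pcdh9 is the unit whose oligodendrocyte-like level was 13.87, against 8.19 in microglia-like nuclei. The 8 summed oligodendrocyte markers in microglia-like nuclei were 171 to 308 CPM in young and 369 to 433 in old mice, with up to 4 of them at 0 in a young mouse, and the 9 granule markers were 953 to 1342 and 1247 to 1702. The median UMIs were 921.5 to 1311 and 1440 to 2346.5, and the part of these in the rise of Pcdh9 was not tested. Cdh23, the member highest in this class, had a fold change of -0.19 (adjusted p = 0.863, edgeR).

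No member was called with age in CA1-like (25 units), CA3-like (24 units, with 2 old ad libitum mice), inhibitory-like (27 units) or subicular or cortical-like nuclei (20 units). In these classes the share of all genes called was 0% in the first 3 and 0.00989% in the last, so the absence of calls is not particular to the members. With the libraries numbered 1 as a term, Cdh22 (1.17, adjusted p = 0.0247) and the Pcdhb sum (0.58, 0.0338) rose in CA1-like nuclei, and the Pcdhb sum rose in inhibitory-like (0.58, 0.0133) and subicular or cortical-like nuclei (0.79, 0.0215, edgeR). With the replicate number as a block, Cdh13 in CA1-like (1.07, adjusted p = 0.0383) and Cdh18 in inhibitory-like nuclei (0.73, 0.0366) were called as well. Member medians in the fit without these terms were 0.25, 0.27, 0.25 and 0.17, beside -0.03, -0.03, -0.03 and -0.02 over all genes. An unadjusted p under 0.05 was found for 9, 4, 8 and 4 units, beside 2274 of 12794, 1094 of 11441, 2629 of 13357 and 1262 of 10113 genes.

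Acute restriction from 20 months gave 1 call among the 199 pairs, against 0.217% of all pairs (0.0938% higher and 0.123% lower). Both restricted groups were compared with the same old ad libitum mice, so these comparisons share their controls with each other and with ageing. The call was Cdh19 (chromosome 1, 110888326 to 110977584, minus strand), a type II cadherin known from glia of peripheral nerves, in oligodendrocyte precursor-like nuclei, where 0.151% of all genes were called. It was at 7.19, 6.83 and 7.12 in old mice fed ad libitum and at 7.61, 7.80 and 7.83 in acutely restricted mice. The groups did not overlap, and the rise was 0.72 ± 0.15 (adjusted p = 0.0424, edgeR) and 0.84 without the libraries numbered 1 (adjusted p = 0.0041). Acutely restricted and old ad libitum mice did not overlap in 32 of the 199 member pairs, and the share over all genes was not counted. Leaving out any 1 mouse gave 0.60 to 0.78, and the call was lost without 8 of 13, each acute mouse and each old mouse fed ad libitum, long-term mouse 4 and young mouse 3 (adjusted p 0.0519 to 0.395), with median UMIs as a covariate (0.83, 0.0643) and with members among the clustering genes (0.70, 0.0595).

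Young mice had 6.72, 6.21 and 6.77 for Cdh19 in these nuclei and long-term restricted mice 7.67, 7.07, 7.30 and 7.41. In astrocyte-like nuclei Cdh19 was at 8.46, 8.11 and 8.13 in old mice fed ad libitum, 8.73, 9.61 and 9.49 under acute and 9.56, 8.46, 8.65 and 8.81 under long-term restriction. The acute mice did not overlap with the old mice fed ad libitum, and the fold change was 1.07 ± 0.29 (edgeR adjusted p = 0.382, DESeq2 adjusted p = 0.0227). Within the mice not numbered 1 it was 1.43 and was called (adjusted p = 1.4e-05, edgeR). That fit holds only acute mice 2 and 3 and old ad libitum mice 2 and 4. In it the long-term mice were lower than the acute mice by edgeR (-0.90, adjusted p = 0.0013). In oligodendrocyte-like nuclei the values of 9.35, 8.86 and 9.20 in old ad libitum and 9.26, 9.35 and 9.70 in acutely restricted mice overlapped (0.33, adjusted p = 0.715).

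**Figure D4:**
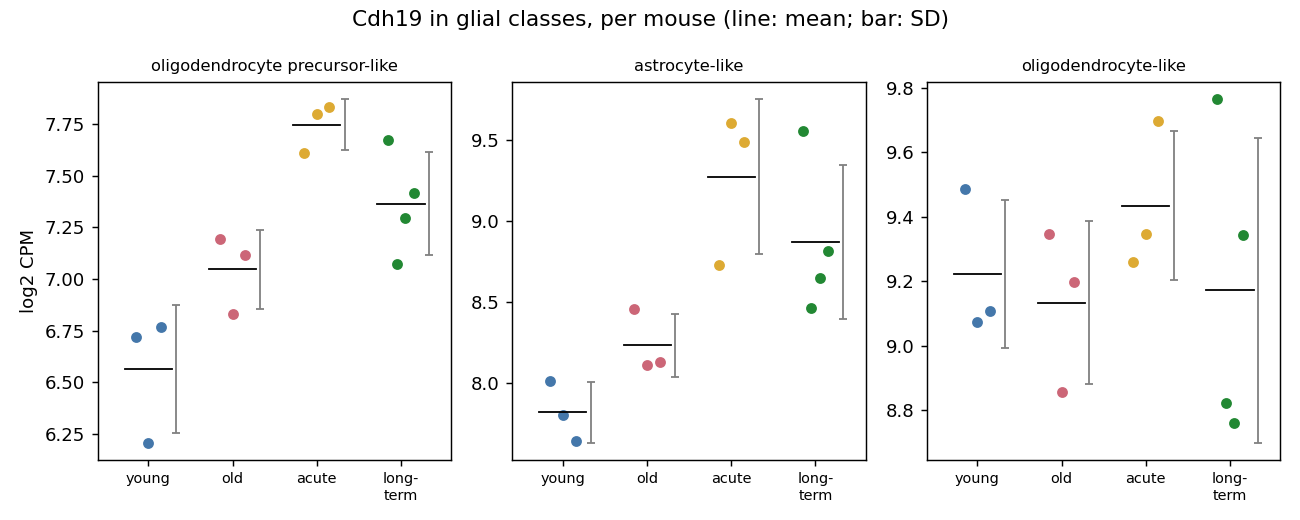
Log2 CPM of Cdh19 per mouse (points) in 3 glial classes, with the mean (line) and SD (bar) of each group. In precursor-like and astrocyte-like nuclei the 3 acutely restricted mice lie above the 3 old mice fed ad libitum; in oligodendrocyte-like nuclei they overlap.

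The Pcdhb sum had lower values in restricted than in old ad libitum mice in all 8 classes, with no call by edgeR in the fit over all mice without further terms. In granule-like nuclei it was at 5.22, 5.23 and 5.28 under acute and 5.61, 5.26, 5.29 and 5.55 under long-term restriction, below the 6.03, 5.88 and 5.97 of old mice fed ad libitum and next to the 5.54, 5.44 and 5.20 of young mice. The acute fold change was -0.72 ± 0.12 (edgeR adjusted p = 0.0618, DESeq2 adjusted p = 0.0002) and the long-term one -0.53 ± 0.11 (edgeR adjusted p = 0.465, DESeq2 0.0489). With a term for the libraries numbered 1 edgeR called the acute value (-0.71, adjusted p = 0.0106), and it also did without the filter on low counts (0.04) and in the cluster led by Dsp alone (-0.75, 0.0448). Under long-term restriction the sum was called in precursor-like nuclei with that term (-0.62, adjusted p = 0.0362), and in astrocyte-like (-0.94, 0.0296) and precursor-like nuclei (-0.71, 0.048) without these libraries. In astrocyte-like nuclei it was at 6.75, 6.80 and 6.43 under acute and 6.66, 6.32, 6.16 and 6.30 under long-term restriction, below the lowest old ad libitum mouse at 7.01.

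Over the 8 classes the fold changes of the Pcdhb sum were -0.27 to -0.72 under acute and -0.47 to -0.76 under long-term restriction, and the unadjusted p was under 0.05 in 5 and 7 of them. Gene by gene, 8 of 63 pairs were above 0 under acute (median -0.57) and 6 of 63 under long-term restriction (median -0.54), with none called, and 32 of 63 were above 0 between the restricted groups. These pairs too are parts of the same sum and not repeats of it. The old ad libitum mice are the control of both comparisons and the group that was higher in ageing, so these values are not independent of the ageing result. With median UMIs as a covariate 0 member pairs were called under either diet, beside 37 (acute) and 17 (long-term) of all pairs. Median UMIs per granule-like nucleus were 7063 to 12800 in old ad libitum, 5629.5 to 6872 in acutely and 6295.5 to 9282.5 in long-term restricted mice. In astrocyte-like nuclei they were 2854 to 5026, 2273 to 3058.5 and 2542 to 3524.5, and their part in these results was not tested.

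**Figure D5:**
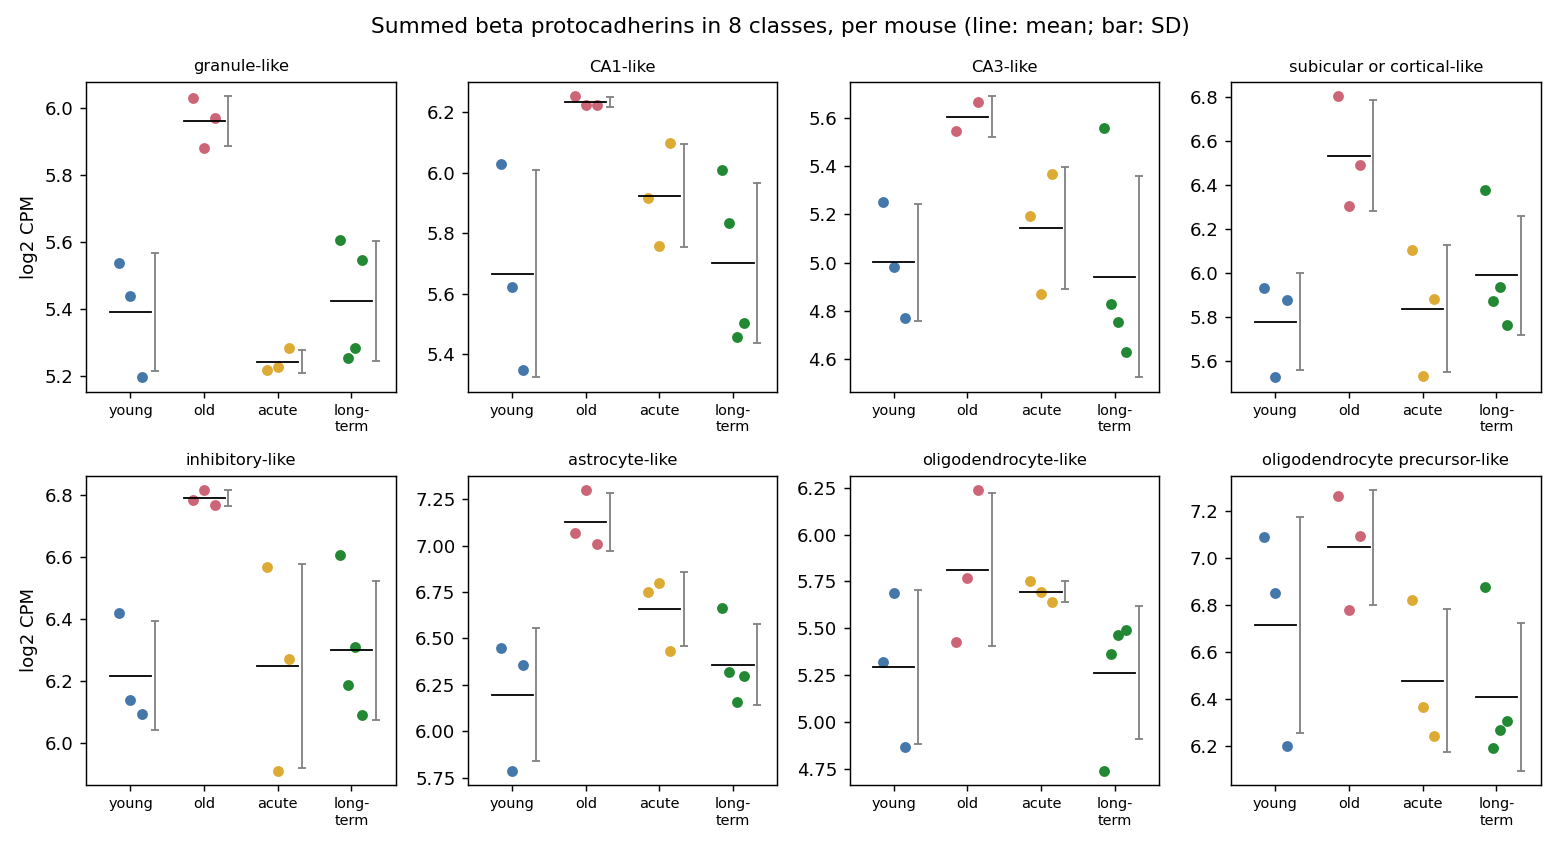
Log2 CPM of the summed Pcdhb genes per mouse (points) in 8 classes, with the mean (line) and SD (bar) of each group. In granule-like, CA1-like, subicular or cortical-like, inhibitory-like, CA3-like and astrocyte-like nuclei the old ad libitum mice lie above all young and all acutely restricted mice.

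Members other than Cdh19 gave no call in that fit under either diet. Long-term restriction gave 0 of 199 pairs called by edgeR, against 0.0419% of all pairs (0.02% higher and 0.022% lower), with 23 of 199 member pairs and 4604 of all 100167 pairs at an unadjusted p under 0.05 (DESeq2 called 1 member pair, the Pcdhb sum in granule-like nuclei). Its median fold change was -0.05 and 87 pairs were above 0. Acute restriction had 22 member pairs and 5129 of all pairs at an unadjusted p under 0.05 and a member median of -0.05, and Pcdh15 in oligodendrocyte-like nuclei came next to the Pcdhb sum in adjusted p (-0.44 ± 0.12, adjusted p = 0.0681, edgeR) and was called with the term for number 1 (-0.43, 0.0472). Cdh18 had a long-term fold change above 0 in all 8 classes (0.09 to 0.47) and so did Cdh10 (0.05 to 0.42), none called, and Cdh12 in astrocyte-like nuclei was called lower without the libraries numbered 1 (-1.41, adjusted p = 0.0223, edgeR). With the replicate number as a block Pcdh7 in oligodendrocyte-like nuclei (-0.90 acute and -0.88 long-term) and Pcdh9 in microglia-like nuclei (-0.97 and -0.95) were called lower. Without the filter on low counts, Cdh24 in oligodendrocyte-like nuclei was called higher under acute restriction (adjusted p = 0.0497, edgeR). Cdh24 did not pass the filter in that class, so its fold change is not given. In the same unfiltered fit Pcdh15 in subicular or cortical-like nuclei was called higher under long-term than acute restriction (0.71, 0.0241). Pcdh7 in oligodendrocyte-like nuclei (-0.75 and -0.71) was called lower under both diets. So was Cdh13 in CA3-like nuclei (-1.65 acute, adjusted p = 5.8e-05, and -1.49 long-term, 0.000578, edgeR). In the filtered fit Cdh13 had -1.70 with an adjusted p of 1.0, with 2 old ad libitum mice in that class, and -0.44 without the libraries numbered 1. Long-term against acute restriction gave 0 calls by edgeR and by DESeq2, against 0.011% of all pairs (0.00299% higher and 0.00799% lower), and 17 member pairs and 2904 of all pairs at an unadjusted p under 0.05. By class, the share of all genes called was 1.73% in oligodendrocyte-like, 0.0522% in astrocyte-like and 0.0234% in microglia-like nuclei under acute restriction, 0.265% in oligodendrocyte-like and 0.13% in precursor-like nuclei under long-term restriction, and 0.0971% in oligodendrocyte-like nuclei between the restricted groups.

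Cadherins act through catenins and are joined at the membrane by other members of their superfamily, and a list of 41 such genes was read from the same fits. The list covers catenins and junction partners, other superfamily members such as Fat and Celsr, signalling and cleavage partners of protocadherins, and regulators of the clustered promoters. Of these, 40 passed the filter and gave 298 pairs. With age 11 pairs (3.69%) rose and none was called lower, beside 1.5% of all pairs called and 0.841% higher, and the median was 0.13, beside -0.03 over all pairs. None of the 11 was called with the length trend removed, where the median was -0.02, or with median UMIs as a covariate. By list the calls were 4 of 107 for catenins and junction partners, 4 of 77 for other superfamily members, 3 of 70 for signalling and cleavage and 0 of 44 for the regulators, which had 3 pairs at an unadjusted p under 0.05.

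Ctnna2, the neural alpha-catenin that links cadherins to actin, rose by 0.69 ± 0.12 in oligodendrocyte-like nuclei (adjusted p = 0.00152, edgeR), a value that was -0.06 with the length trend removed, and by 2.38 ± 0.54 in microglia-like nuclei (adjusted p = 0.0354). Clstn2, a calsyntenin of synapses, rose by 1.16 ± 0.29 in oligodendrocyte-like nuclei (adjusted p = 0.0178), and Fat3, a giant atypical cadherin, by 0.60 ± 0.12 in precursor-like nuclei (0.00589, edgeR). In granule-like nuclei Dchs2 (a dachsous cadherin), Celsr3 (a cadherin of axon guidance) and Cyfip2 (of the actin-regulating WAVE complex) rose by 1.27, 0.51 and 0.36. Under acute restriction Afdn (afadin, -0.51 ± 0.13, adjusted p = 0.0345) and Nectin1 (-0.88 ± 0.23, 0.0415), partners in nectin junctions, fell in oligodendrocyte-like nuclei by edgeR, where 1.73% of all genes were called, and neither was called by DESeq2 (adjusted p = 0.148 and 0.222). Without the libraries numbered 1, Clstn2 (1.09, adjusted p = 0.0775) and Cyfip2 (0.36, 0.0566) were lost and the other calls named here were kept by edgeR. Without the filter on low counts, 4 of the 25 calls followed through the alternative fits were lost, all of them from this list. Removal of the length trend moved Fat3 to 0.26, Clstn2 to 0.57, Cyfip2 to 0.16 and Ctnna2 in microglia-like nuclei to 1.19, and ended the call of Afdn (-0.43, adjusted p = 0.0993, edgeR). Long-term restriction, and the comparison between the restricted groups, gave 0 calls in this list by edgeR, with 18 and 21 pairs at an unadjusted p under 0.05.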

How the data were processed

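The authors deposited filtered matrices of UMI counts per gene and nucleus for 13 libraries, made with Cell Ranger 4.0.0 on mm10, per the submitters' processing notes. Strand use, counting of introns and correction for ambient RNA are not given in the sources used here. Barcodes needed 500 genes or more and no more than 5% of UMIs from mitochondrial genes, and predicted doublets (0.8% per 1000 barcodes) were removed with Scrublet in scanpy 1.11.5. Nuclei were clustered on 2000 variable genes without the members (30 components, 20 neighbours, Leiden resolution 1, leidenalg 0.10.2) and named from marker lists. A rule set after leading genes were seen left 2 clusters unnamed. Counts were summed per mouse and class (at least 20 nuclei, at least 2 mice per group) and tested in 1 fit over all 4 groups with edgeR 4.0.16 (quasi-likelihood, TMM, filterByExpr), with adjustment over all genes of a class. DESeq2 1.42.0 was an alternative, as were RLE size factors, a minimum of 50 nuclei, doublets kept, other filters, covariates, a term for the libraries numbered 1 and each mouse left out. The length correction with sums at the span of their whole cluster was added after the data were seen, and so was the split by granule cluster. The fits that join the term for number 1 to median UMIs or to the removal of the length trend were also added then. Every member that passed the filter could be named with its levels, every called member was named, and up to 8 pathway calls of smallest adjusted p per comparison, of which 1 is not reported here. The members and lists were chosen with earlier results of these data known. The fits were tested on simulated data. Gene spans and coordinates are from GENCODE vM21 (GRCm38/mm10).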

Additional observations from a re-analysis of the deposited data

How the results depend on the processing

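Counts of called members depended on how depth, length and the libraries numbered 1 were treated. With age (14 called) the count was 29 without the filter on low counts, 32 with the replicate block, 3 with the block and median UMIs, 32 with a term for number 1, 27 without these libraries, 4 with the term and median UMIs, 0 with median UMIs, 6 from only the groups compared and 5 with the length trend removed and sums at their locus span. Under acute restriction (1 called) it was 3 with DESeq2, 5 unfiltered, 3 with the block, 0 with the block and median UMIs, 3 with the term, 3 with the term and the length trend removed, 2 without number 1, 0 with median UMIs, 2 from only the groups compared and 0 with members among the clustering genes. Over all genes the acute calls were 217, and in the same order 180, 497, 375, 72, 450, 544, 462, 37, 414 and 211. Under long-term restriction (0 called) it was 1 with DESeq2, 3 unfiltered, 2 with the block, 2 with the block and median UMIs, 1 with the term, 1 with the term and median UMIs, 1 with the term and the length trend removed and 3 without number 1. Over all genes the long-term calls were 42, and in the same order 46, 205, 145, 87, 121, 107, 165 and 130. Between the restricted groups (0 called) it was 1 unfiltered and 1 without number 1, where 61 and 59 of all pairs were called, beside 11 in the main fit. Leaving out 1 mouse gave 1 to 19, 0 to 2, 0 to 0 and 0 to 0 calls, beside 198 to 4008, 71 to 272, 3 to 79 and 4 to 38 over all genes.

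Pathway calls with age (11) became 18 with DESeq2, 18 with the block, 2 with the block and median UMIs, 23 with the term, 22 without number 1, 0 with median UMIs, 0 with the length trend removed and 3 from only the groups compared. Under acute restriction (2) they became 1 with DESeq2, 0 with the block and median UMIs, 0 with median UMIs and 1 with the length trend removed, under long-term restriction (0) 1 with DESeq2 and 1 unfiltered, and between the restricted groups 1 unfiltered. The direction reversed for Cdh23 in granule-like nuclei (-0.22 with members among the clustering genes, -1.01 in 1 cluster alone), for Cdh20 in oligodendrocyte-like nuclei (-0.0100 with the length trend removed, -0.0192 with the term as well, -0.00999 with sums at locus span) and for Ctnna2 there (-0.0570 with the length trend removed), and the cause was not tested. Equal replicate numbers were not treated as pairs in the main fit. In granule-like nuclei deviations of number 1 correlated at 0.37 or more, but those of numbers 2 and 3 fell to -0.10. The medians were 0.54, 0.06, 0.20 and 0.34 for numbers 1 to 4 (1 pair for number 4), against -0.07 for different numbers. These values do not decide whether equal numbers pair the mice. Of the 14 ageing calls, 14 were kept with the block, 12 with DESeq2, 5 from only the groups compared, 9 with members among the clustering genes and 0 with median UMIs. Over all genes the ageing calls numbered 1507, and 3016 with DESeq2, 3388 unfiltered, 6103 with the block, 7316 with the term, 7149 without number 1 and 34 with median UMIs. They numbered 250 with the block and median UMIs, 189 with the term and median UMIs and 1032 from only the groups compared. With the length trend removed and sums at locus span they numbered 576, and member counts are to be read against all of these. Median UMIs of young and old mice overlapped for the CA1-like and the CA3-like class, and for no other class tested.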

Other observations

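Within inhibitory-like nuclei the levels of some members differed between interneuron groups, given here without a test and on a scale of their own. The ranges over 13 mice in Sst-like and Vip-like nuclei did not overlap for Cdh9, Cdh12, Cdh13, Cdh18, Cdh20 and Pcdh15 and overlapped for all other units, such as Pcdh17 (6.82 to 7.78 and 6.96 to 7.62) and the Pcdhb sum (5.81 to 6.98 and 5.69 to 6.74). Cdh13 was at 9.32, 9.77 and 10.34 (lowest, median and highest mouse) in Sst-like nuclei and at 7.28, 8.07 and 8.46 in Vip-like nuclei. Cdh12 was at 8.11, 8.65 and 8.97 against 5.42, 6.39 and 6.94, Cdh9 at 7.88, 8.84 and 9.35 against 5.80, 6.71 and 7.35, and Cdh18 at 7.81, 8.78 and 9.43 against 6.63, 7.48 and 7.64. Pcdh15 was at 9.62 or more in every mouse in Sst-like nuclei and at 9.10 or less in Vip-like nuclei. The reverse order was seen for Cdh20, at 4.89, 5.60 and 6.22 in Sst-like and 7.03, 7.63 and 8.24 in Vip-like nuclei. A further inhibitory-like group, left unnamed, had means of 8.93 for Cdh20, 10.19 for Pcdh15 and 8.49 for Cdh12. Its means were 7.63 for Cdh9, 6.12 for Cdh13 and 5.05 for Cdh18. The share of all genes whose ranges do not overlap between these groups was not counted.

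An unnamed cluster of 9160 nuclei led by Ano2 and Trhr was read apart from the granule-like class. Over all clusters fitted alone, 26 member pairs and 2875 of all pairs were called with age. The share of all genes called in this cluster is not given here, so its number of member calls is not a result about the members. In it Cdh18 rose with age by 1.47, Pcdh7 by 0.94, Cdh7 by 0.90, the Pcdhb sum by 0.63, Pcdh9 by 0.48 and Cdh13 by 0.39, all at an edgeR adjusted p under 0.05, whereas Cdh2 (0.34, adjusted p = 0.069), Cdh22 (0.54, 0.122) and Cdh23 (0.01, 0.996), also called in the granule-like class, were not.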
